A study of Mus musculus with 11 samples.

Results

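The interferon-response genes described here are 9 genes that cells switch on, or use, when type I interferon reaches them: the transcription factors Stat2, Irf9 and Irf7, the RNA sensor Ddx58 (RIG-I, also called Rigi), and the effectors Isg15, Ifit1, Ifit3, Oasl2 and Bst2. They were taken by symbol from the gene counts of 11 cultured mouse progenitor clones, and all 9 of 9 were found among 37583 gene IDs. Of the 9, 7 were among the 11900 genes with enough reads to be tested, and Isg15 and Ifit3 were not. The clones were granulocyte-monocyte progenitors (GMPs), the precursors of neutrophils and monocytes, grown from C57BL/6 fetal liver of embryonic day 15.5 and held immature by ER-Hoxb8, an estradiol-dependent form of the transcription factor Hoxb8 brought in with a retrovirus. Each line came from 1 cell. The knockout (KO) group held 5 clones lacking tafazzin, named 3H, 3I, 4J, 4K and 4L, and the wild-type (WT) group held 6 clones, named 1A, 1B, 1C, 2D, 2E and 2F. Tafazzin, encoded by Taz, remodels cardiolipin, a phospholipid of the inner mitochondrial membrane, and the sources used here do not say which part of Taz was altered. Clones of both groups carried ER-Hoxb8 and were kept in 0.5 uM estradiol with stem cell factor (near 50 ng/ml). All clones of both groups had thus been transduced with a retrovirus, and the labels name no added interferon. Polyadenylated RNA was sequenced from 5 M cells per clone. The number in a clone's name, 3 or 4 in KO and 1 or 2 in WT, has no stated meaning, so clones of the same number may come from a common culture, and p-values reflect no more than how much these clones vary.

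Type I interferons are secreted when a cell senses viral or misplaced nucleic acid, and they bind a receptor made of Ifnar1 and Ifnar2. The kinases Jak1 and Tyk2 then phosphorylate Stat2, which works with Irf9 in ISGF3, the complex that binds interferon-stimulated response elements (ISREs) in promoters. Irf7 is itself induced and drives further interferon production, and myeloid and stem cells are known to keep a low tonic level of some interferon-stimulated genes without any added interferon.

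The promoters of the members show which of them carry ISRE-like letters, and 5 are printed because 4 of them hold these letters and Irf7, against which the other members are set across clones, does not. The letters searched, on either strand, were GAAA, any 2 bases and GAAA again, the repeated core of an ISRE. They were sought from 250 bases before to 50 bases after each gene's start in RefSeq promoters of GRCm38.p6, where all 9 members had an entry. The 250 bases before the start are given 5′ to 3′ on the gene's own strand, with each match in capitals.
Isg15 (chr4:156200819-156201068, - strand): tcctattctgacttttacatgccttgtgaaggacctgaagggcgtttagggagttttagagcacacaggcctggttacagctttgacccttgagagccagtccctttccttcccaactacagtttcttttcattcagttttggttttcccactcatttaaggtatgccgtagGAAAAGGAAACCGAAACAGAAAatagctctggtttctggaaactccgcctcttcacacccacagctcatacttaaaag
Ifit1 (chr19:34640639-34640888, + strand): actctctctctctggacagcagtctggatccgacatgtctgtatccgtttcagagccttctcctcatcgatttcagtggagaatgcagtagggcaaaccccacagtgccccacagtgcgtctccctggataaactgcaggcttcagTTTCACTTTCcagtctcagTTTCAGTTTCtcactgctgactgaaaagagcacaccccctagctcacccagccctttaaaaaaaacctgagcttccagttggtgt
Ifit3 (chr19:34583279-34583528, + strand): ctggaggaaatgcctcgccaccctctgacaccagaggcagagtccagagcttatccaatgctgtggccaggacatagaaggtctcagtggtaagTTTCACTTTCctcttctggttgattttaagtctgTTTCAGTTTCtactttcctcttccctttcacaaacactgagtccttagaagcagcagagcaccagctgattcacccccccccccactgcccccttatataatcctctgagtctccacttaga
Bst2 (chr8:71537473-71537722, - strand): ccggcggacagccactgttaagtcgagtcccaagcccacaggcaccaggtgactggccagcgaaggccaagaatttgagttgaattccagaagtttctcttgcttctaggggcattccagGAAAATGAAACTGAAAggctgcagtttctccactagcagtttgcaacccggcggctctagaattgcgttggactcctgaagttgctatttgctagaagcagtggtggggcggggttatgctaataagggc
Irf7 (chr7:141266425-141266674, - strand): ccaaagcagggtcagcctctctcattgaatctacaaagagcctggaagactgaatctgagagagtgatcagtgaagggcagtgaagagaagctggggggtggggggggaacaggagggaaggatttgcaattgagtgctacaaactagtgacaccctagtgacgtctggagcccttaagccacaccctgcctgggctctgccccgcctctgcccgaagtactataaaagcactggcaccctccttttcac

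In the Isg15 promoter, 3 overlapping matches began 78, 72 and 66 bases before the start. The Ifit1 promoter held matches beginning 104 and 85 bases before the start, and the Ifit3 promoter 156 and 122 bases before it. In the Bst2 promoter, 2 overlapping matches began 130 and 124 bases before the start. Stat2, which is not printed, held 1 match 222 bases before its start, and Ddx58 held 1 just after its start, while Irf7, Irf9 and Oasl2 held none in these windows. The letters were therefore present for 6 of 9 members (66.7%), against 28 of 61 other interferon-stimulated genes with an entry (45.9%) and 1079 of 27025 genes in all (3.99%). TTC and GAA with any 3 bases between them, the core of the STAT-binding GAS element, were found for 1 member, Bst2, against 2582 genes in all (9.55%). A match shows only that these letters are present.

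The genotype labels matched the targeted gene in all libraries: Taz lay between 2.21 and 4.09 CPM in KO clones and between 37.0 and 43.8 CPM in WT clones. CPM is a gene's reads after every library is scaled by TMM to the same total, and libraries held 19778119 to 23658158 gene counts in KO and 21966954 to 27431544 in WT clones. The 10 markers of GMPs were all expressed, with summed levels of 12300 to 20300 CPM in KO and 13200 to 22700 CPM in WT clones. Between genotypes, 601 of 11900 genes were called at an adjusted p under 0.05 in edgeR's quasi-likelihood test (5.05%): the KO clones were higher for 328 genes (2.76%) and lower for 273 (2.29%).

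None of the 7 tested members was called between KO and WT clones, where 5.05% of all tested genes were. None reached even an unadjusted p of 0.05 in edgeR, against 2417 of all genes, and the lowest adjusted p among them was 0.264, for Bst2. DESeq2 and limma-voom also called none of them. The CPM ranges of the genotypes overlapped in all 9 members, and in all but 5.99% of all tested genes, to which Isg15 and Ifit3 do not belong. At shares this small, a lack of called or non-overlapping genes among so few does not set the members apart. For most members the clones of 1 genotype lay far apart, and the clones in which they were high or low were largely shared. Levels per length of exon, a scale on which genes can be compared, fell into a wide range. Bst2 stood at 53.9 ± 5.18 CPM per kilobase (SD, n = 11) and was the most abundant in every clone, followed by Stat2 at 4.42 ± 0.305, Irf9 at 3.46 ± 0.896 and Ddx58 at 2.53 ± 0.917. Isg15 and Irf7 followed at 0.635 ± 0.569 and 0.542 ± 0.285 CPM per kilobase and did not differ beyond their spread, Isg15 being above Irf7 in 3 of 11 clones. Ifit1 stood at 0.25 ± 0.144, Oasl2 at 0.136 ± 0.0991 and Ifit3 at 0.0175 ± 0.022 CPM per kilobase. Stat2 was above Irf9 in 10 of 11 clones and Ifit1 above Oasl2 in 9, and each of the other neighbours in this order kept its place in all 11. Exon lengths are those of a GRCm38 annotation with all isoforms merged, and for Irf7 the merged exons fill the whole gene, which lowers its value on this scale.

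**Figure D1:**
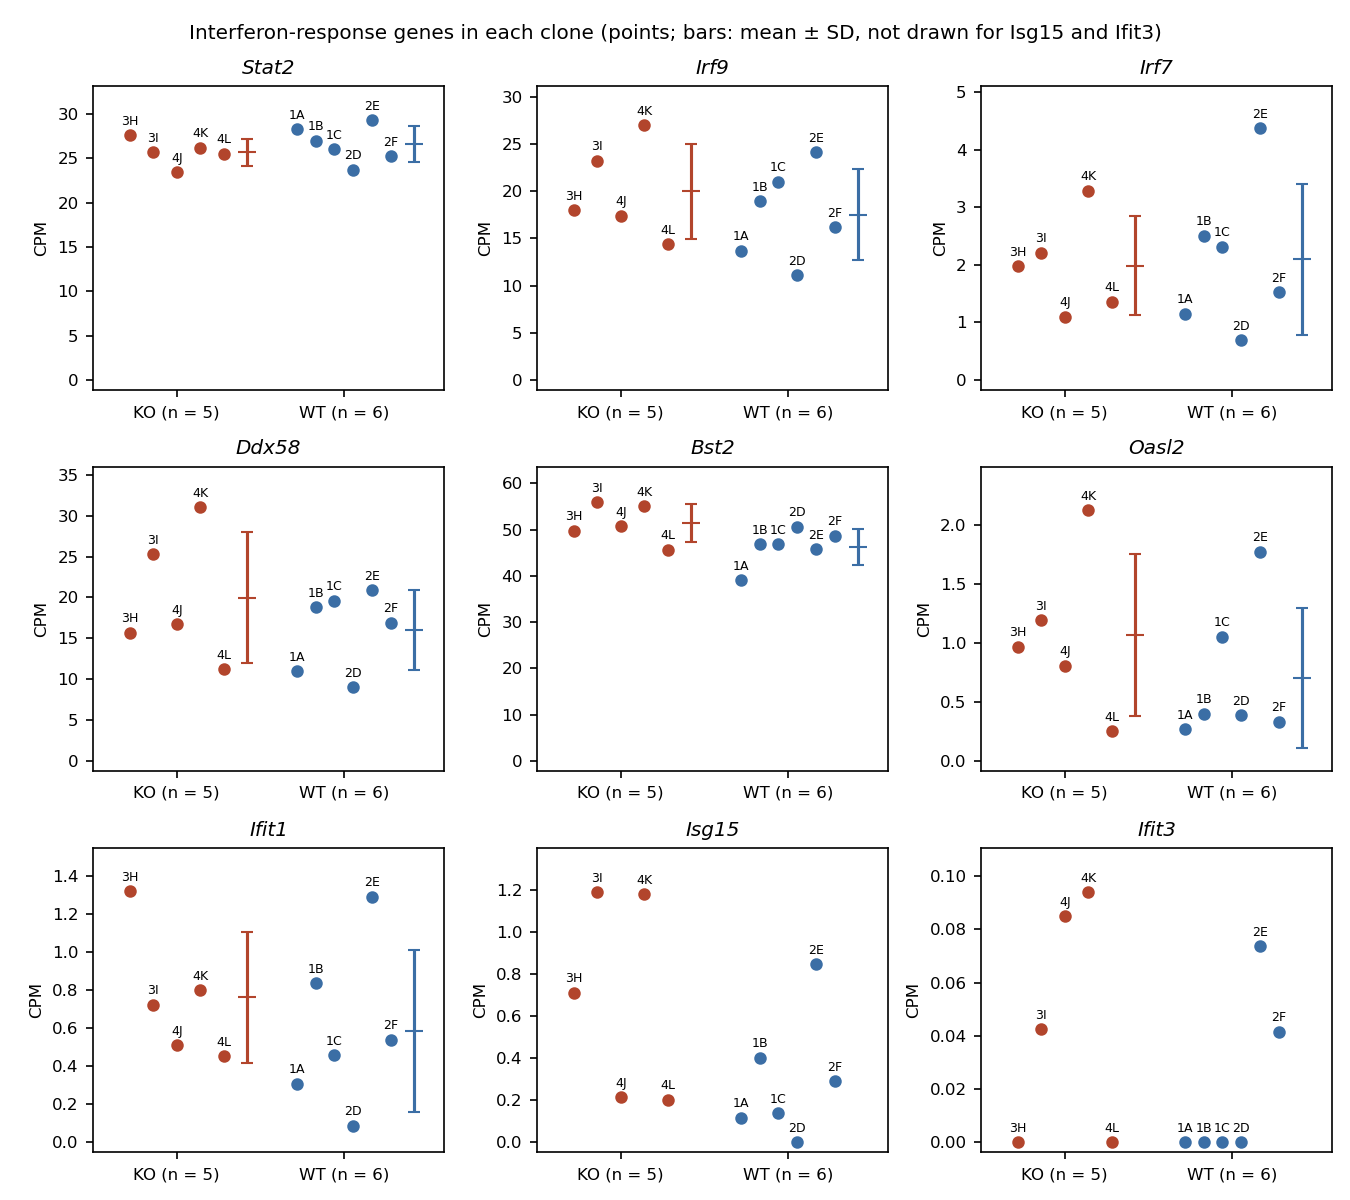
Levels of the 9 interferon-response genes in CPM (vertical axes, linear) in each of 5 KO clones (red, left) and 6 WT clones (blue, right), with 1 labelled point per clone and bars for mean ± SD, which are not drawn for the sparsely counted Isg15 and Ifit3. The genotypes overlap in all 9 panels, and clones KO 4K and WT 2E are high and WT 2D low in most of them.

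Stat2 encodes the STAT protein that gives ISGF3 its transactivating part (chromosome 10, 128270559 to 128292849, + strand, GRCm38). Its level, with clones always in the order 3H, 3I, 4J, 4K, 4L for KO and 1A, 1B, 1C, 2D, 2E, 2F for WT, was 27.6, 25.7, 23.4, 26.2 and 25.5 CPM in KO clones, against 28.3, 27, 26, 23.7, 29.3 and 25.2 CPM in WT clones. The clones were close together: the highest was 1.25-fold above the lowest, and the genotypes overlapped almost wholly. The log2 fold change, KO over WT, was -0.049 ± 0.064 (SE), with a 95% interval from -0.19 to 0.092 and an edgeR adjusted p of 0.722.

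Irf9 encodes the DNA-binding subunit of ISGF3 (chromosome 14, 55603571 to 55610030, + strand). It measured 18, 23.2, 17.4, 27 and 14.4 CPM in KO clones, against 13.7, 18.9, 21, 11.1, 24.1 and 16.2 CPM in WT clones. KO 4K, KO 3I and WT 2E were the high clones, WT 2D, WT 1A and KO 4L the low ones, and the spread within each genotype, 20 ± 5.03 CPM in KO and 17.5 ± 4.79 CPM in WT (SD, n = 5 and 6), exceeded the difference between them. The log2 fold change was 0.19 ± 0.22 (SE; 95% interval -0.28 to 0.67; edgeR adjusted p = 0.671). The annotated exons of Irf9 share 123 bases with those of Rnf31, its neighbour on the same strand.

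Irf7 encodes the interferon-induced factor that amplifies the response (chromosome 7, 141262706 to 141266481, - strand). It was expressed at 1.98, 2.21, 1.1, 3.29 and 1.36 CPM in KO clones, against 1.15, 2.51, 2.32, 0.691, 4.38 and 1.53 CPM in WT clones. Both the highest clone, WT 2E, and the lowest, WT 2D, were WT clones, 6.34-fold apart, resting on 119 and 16 reads. The KO and WT means were 1.99 ± 0.856 and 2.1 ± 1.31 CPM (SD, n = 5 and 6), and the log2 fold change was -0.079 ± 0.45 (SE; edgeR adjusted p = 0.944). Its 95% interval ran from -1.07 to 0.91, so a change of less than about this size was not detectable at this depth and spread. Counting was not strand-specific, and Irf7 shares 45 exon bases with Phrf1 on the opposite strand, whose reads cannot be told apart there.

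Ddx58 encodes RIG-I, the cytosolic helicase that senses RNA with 5′ triphosphate ends (chromosome 4, 40203773 to 40239828, - strand). Its level was 15.7, 25.3, 16.7, 31.0 and 11.2 CPM in KO clones, against 11.0, 18.8, 19.6, 8.99, 20.9 and 16.9 CPM in WT clones. KO 4K and KO 3I lay above every WT clone while KO 4L lay near the bottom of the WT range. The log2 fold change was 0.32 ± 0.29 (SE; 95% interval -0.33 to 0.96; edgeR adjusted p = 0.593).

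Bst2 encodes tetherin, a membrane protein that holds budding viruses at the cell surface (chromosome 8, 71534255 to 71537456, - strand). It measured 49.8, 55.9, 50.8, 55.1 and 45.7 CPM in KO clones, against 39.1, 46.8, 46.8, 50.6, 45.8 and 48.7 CPM in WT clones. The KO mean was 51.5 ± 4.16 and the WT mean 46.3 ± 3.92 CPM (SD, n = 5 and 6), with KO 3H and 4L inside the WT range and KO 4J only just above it. The log2 fold change of 0.15 ± 0.072 (SE) had a 95% interval from -0.0058 to 0.31 and an edgeR adjusted p of 0.264. An exact permutation test over all 462 splits of the clones gave a two-sided unadjusted p of 0.0736 for Bst2, the lowest among the 9 members, where the smallest it can give is 0.00216. The highest was 0.913, for Irf7.

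Oasl2 encodes an oligoadenylate synthetase-like protein with ubiquitin-like repeats (chromosome 5, 114896936 to 114912234, + strand). Its level was 0.965, 1.19, 0.807, 2.12 and 0.251 CPM in KO clones, against 0.269, 0.4, 1.05, 0.389, 1.77 and 0.332 CPM in WT clones. KO 4K and WT 2E were the 2 highest, and KO 4L was the lowest of all 11, 8.44-fold below KO 4K, with 5 reads. The log2 fold change was 0.60 ± 0.60 (SE; 95% interval -0.71 to 1.92; edgeR adjusted p = 0.619).

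Ifit1 encodes a protein that binds viral RNA lacking cap methylation (chromosome 19, 34640871 to 34650009, + strand). It was counted at 1.32, 0.722, 0.51, 0.8 and 0.452 CPM in KO clones, against 0.307, 0.836, 0.455, 0.0864, 1.29 and 0.539 CPM in WT clones. KO 3H and WT 2E were high, WT 2D was lowest with 2 reads, and the log2 fold change was 0.36 ± 0.53 (SE; 95% interval -0.80 to 1.52; edgeR adjusted p = 0.756).

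Isg15 encodes the ubiquitin-like protein that is attached to other proteins after interferon (chromosome 4, 156199424 to 156200818, - strand). It gave 14, 28, 5, 25 and 4 reads in KO clones, against 3, 11, 3, 0, 23 and 7 reads in WT clones, or at most 1.19 and 0.847 CPM. KO 3I, KO 4K and WT 2E were high, and WT 2D, with 0 reads, is compatible with up to 0.13 CPM, the level of 3 counts. Isg15 did not pass the count filter, and a two-sided exact permutation test of its log2 CPM gave p = 0.136 (unadjusted). Without the filter its log2 fold change was 1.19 ± 0.75 (SE; edgeR adjusted p = 0.53).

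Ifit3 encodes a partner of Ifit1 (chromosome 19, 34583531 to 34588731, + strand). It was close to absent, with 0, 1, 2, 2 and 0 reads in KO clones and 0, 0, 0, 0, 2 and 1 in WT clones, all below the level of 3 counts. Its near-identical neighbour Ifit3b makes even these counts uncertain, because reads with more than 1 best location were not counted.

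**Figure D2:**
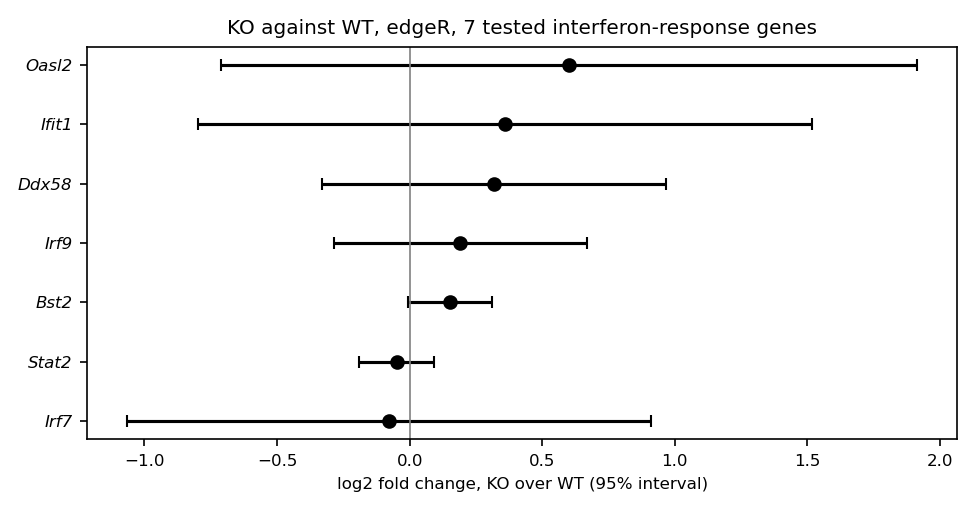
Log2 fold changes (horizontal axis), KO over WT, of the 7 tested interferon-response genes from edgeR, with points for the estimates and bars for 95% intervals. All 7 intervals include 0, and they are narrow for Stat2 and Bst2 and widest for Oasl2 and Ifit1.

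No member was called between clones of different title numbers within a genotype. Of the 7 tested members none was called between WT clones numbered 2 and 1 or between KO clones numbered 4 and 3 in edgeR (adjusted p = 1 for each), in contrasts that called 0 of 11900 genes (0%). At an unadjusted p under 0.05 these contrasts held 372 and 161 genes, none of them a member, and DESeq2 called 12 and 6 genes, again no member. Among members the log2 fold changes of WT 2 over WT 1 ran from -0.077 for Ddx58 to 0.56 for Oasl2, and those of KO 4 over KO 3 from -0.79 for Ifit1 to -0.025 for Oasl2. The variation lay between clones within each number. WT 2E and WT 2D, which were among the highest and lowest clones, carry the same number, as do KO 4K and KO 4L.

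The spread among clones of 1 genotype is expressed as edgeR's biological coefficient of variation. It was 0.662 for Oasl2, 0.565 for Ifit1, 0.521 for Irf7, 0.35 for Ddx58 and 0.267 for Irf9, against a median of 0.137 over all tested genes. Stat2 and Bst2, at 0.111 and 0.107, lay below that median. Members' centred log2 CPM were averaged over the 7 tested genes to place each clone. The averages were 0.24, 0.35, -0.11, 0.63 and -0.42 in the KO clones, against -0.53, 0.071, 0.14, -0.80, 0.62 and -0.20 in the WT clones. Each genotype thus held clones at both ends. The lowest clone, WT 2D, had 23288919 gene counts, against 21293849 and 26829138 in the high clones KO 4K and WT 2E. The part of depth in this pattern was not tested.

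Irf7 was set against each other member across the 11 clones, in 8 relations with p-values adjusted over them and from 100000 permutations of the clones. How many of all tested genes follow Irf7 as closely was not computed. These relations are thus not shown to be particular to the members. With the members' average, 5.57% of the 11893 tested genes outside the members had an r over 0.8 and 6.1% an r under -0.8. The largest coefficient of Irf7 was with its fellow factor Irf9. Pearson's r was 0.909 (permutation p = 0.00015, adjusted p = 0.0012) and Spearman's rho 0.9 (permutation p = 0.00033, adjusted p = 0.00264). Without WT 2D and WT 2E, the clones farthest from the median of Irf7, r was 0.861 over 9 clones (exact permutation p = 0.0032), and within the 6 WT clones it was 0.982 (exact permutation p = 0.00417, adjusted p = 0.0167). Ddx58, the sensor, followed Irf7 with r = 0.822 (permutation p = 0.00205, adjusted p = 0.00547) and rho = 0.845 (adjusted p = 0.00704 by permutation). Its r was 0.814 without those clones (exact permutation p = 0.00758) and 0.929 within WT (exact permutation p = 0.00278, adjusted p = 0.0167).

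The effectors Ifit1, Isg15 and Oasl2 were also high where Irf7 was high. Ifit1 had r = 0.83 (permutation p = 0.00152, adjusted p = 0.00547) and rho = 0.736 (permutation adjusted p = 0.0293), and Isg15 had r = 0.81 (permutation p = 0.00299, adjusted p = 0.00598) and rho = 0.709 (permutation adjusted p = 0.0293). Oasl2 had r = 0.72 (permutation p = 0.0125, adjusted p = 0.0201) and rho = 0.718 (permutation adjusted p = 0.0293). Without WT 2D and WT 2E these fell to 0.607 for Ifit1, 0.68 for Isg15 and 0.667 for Oasl2 (exact permutation p = 0.0819, 0.0498 and 0.0533). Within WT clones r was 0.951 for Ifit1, 0.91 for Isg15 and 0.766 for Oasl2 (exact permutation adjusted p = 0.0222, 0.0278 and 0.122). The relation of Oasl2 also lost its call when WT 2E alone was left out (r = 0.642, permutation adjusted p = 0.0745).

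Stat2 had r = 0.649 (permutation adjusted p = 0.0417) and rho = 0.627 (permutation adjusted p = 0.0585) with Irf7. Without WT 2D and WT 2E its r was only 0.265 (exact permutation p = 0.498). When single clones were left out, its call was kept in 4 of 11 runs, with r from 0.492 to 0.857. For Bst2 no relation with Irf7 was called (r = 0.164, rho = 0, permutation adjusted p = 0.632 and 1), although r was 0.551 without WT 2D and WT 2E (exact permutation p = 0.122) and -0.0716 within WT clones (exact permutation p = 0.881). For Ifit3 the reads were too few for r to be read (0.403, permutation adjusted p = 0.249). The 5 KO clones are too few for a correlation of their own, and each title number holds only 2 or 3 clones, so no value within a number can be given. Clones of 1 number may not be independent.

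**Figure D3:**
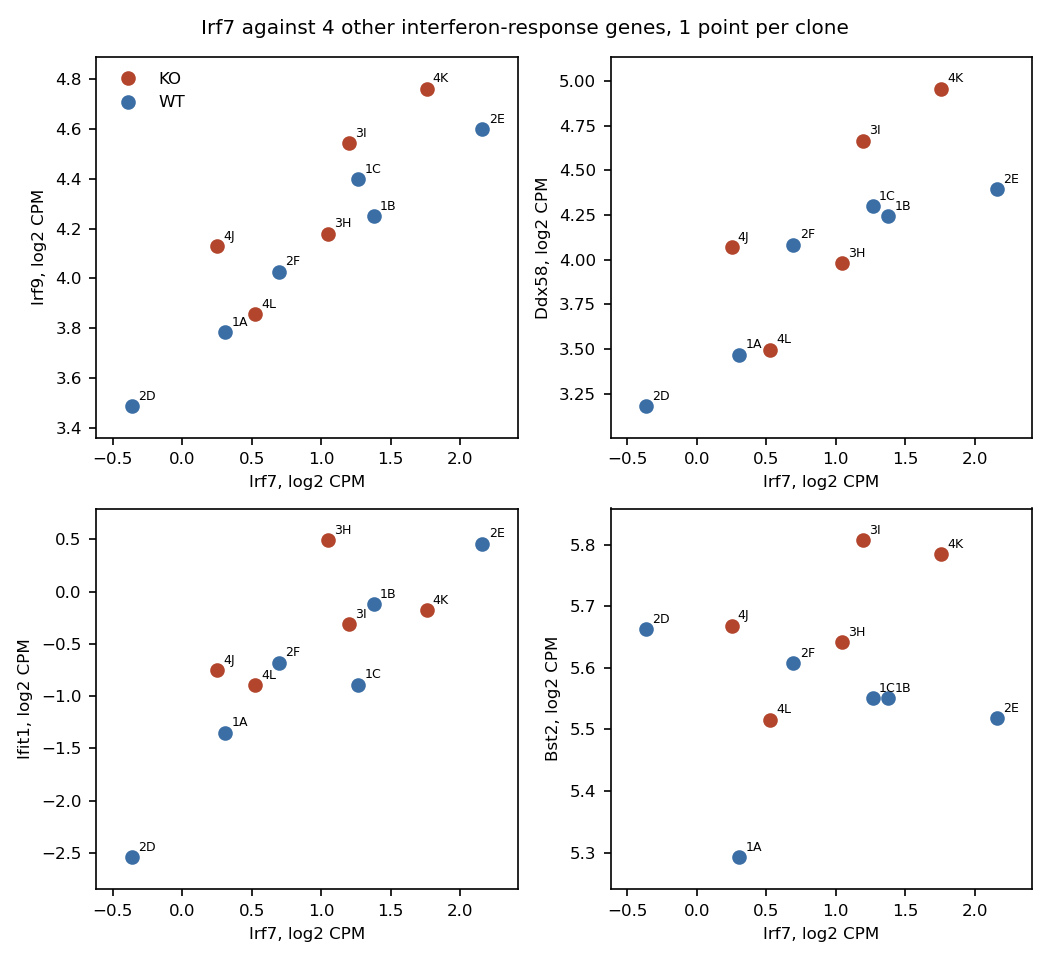
Log2 CPM of Irf9, Ddx58, Ifit1 and Bst2 (vertical axes) against that of Irf7 (horizontal axes), with 1 labelled point per clone, KO in red and WT in blue. Irf9, Ddx58 and Ifit1 increase with Irf7 across both genotypes, from WT 2D at the low end to KO 4K and WT 2E at the high end, whereas no relation was called for Bst2.

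Over the 21 pairs of tested members, 20 had a positive r across clones, 14 exceeded 0.5, and the median was 0.593. The closest pair was Irf9 and Ddx58, at 0.968, and the negative pair was Stat2 and Bst2, at -0.486. These are descriptions of the same 11 libraries, in which all genes share depth and scaling. Pairs drawn from all tested genes were not computed for comparison.

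The wider pathway was read from 7 lists holding 172 symbols, of which 160 were matched and 116 tested. Among them 1 gene was higher and 1 lower in KO clones, against 2.76% and 2.29% of all tested genes. Of the interferons themselves, 11 ligand genes were matched and 10 had no read in any clone. The remaining one, Ifnb1, the fibroblast-type interferon beta, had 1 read in WT 2E, and 3 counts would have been 0.109 to 0.152 CPM. The receptor chains and kinases were all counted above the filter except for the lambda receptor chain Ifnlr1. None of the 8 tested was called by edgeR, and their median log2 fold change was -0.0036. Jak1, the most abundant of them, averaged 255.0 ± 27.5 CPM in KO and 244.0 ± 26.1 CPM in WT clones (SD, n = 5 and 6).

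Of the other STAT and IRF factors, edgeR called none of 7 tested and DESeq2 called 1, and the median log2 fold change was -0.014, against -0.0059 over all tested genes outside the members. Stat3, the most abundant, which serves cytokines of the interleukin-6 family, averaged 226.0 ± 13.9 CPM in KO and 221.0 ± 19.1 CPM in WT clones (SD, n = 5 and 6). Of 15 tested nucleic acid sensors and adaptors edgeR called none (median log2 fold change -0.12). DESeq2 called 1 of them lower in KO clones, Myd88, the adaptor of Toll-like receptors (log2 fold change -0.18, adjusted p = 0.0224), for which edgeR gave an adjusted p of 0.0851. With the title number as a random effect in limma-voom, Myd88 (adjusted p = 0.00937) and the kinase Ikbke (adjusted p = 0.0334) were called lower. Both are named after their values were seen. That setting called 1043 genes higher and 940 lower, against 328 and 273 in edgeR. Neither gene was called with counts summed per title number or with title number set means. Samhd1, a phosphohydrolase that depletes nucleotides and the most abundant of these, averaged 140.0 ± 11.8 CPM in KO and 135.0 ± 14.2 CPM in WT clones (SD, n = 5 and 6).

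Among 53 tested other interferon-stimulated genes, in edgeR 1 rose in KO clones, none fell, and the fold change was above 0 for 33, with a median of 0.051 on the log2 scale. The one that rose was Rnf213, a large ubiquitin ligase. It measured 187.0, 178.0, 174.0, 211.0 and 161.0 CPM in KO clones, against 73.1, 90.8, 156.0, 85.7, 127.0 and 121.0 CPM in WT clones. The genotypes did not overlap, and the log2 fold change was 0.74 ± 0.18 (SE; edgeR adjusted p = 0.0409). It lost its call when any clone but WT 1C or WT 2E was left out (highest adjusted p = 0.0922). A further 24 of the 77 genes on this list were not tested, 22 of them under 1 CPM in every clone and 4 without a read.

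None of 19 tested interferon-gamma and MHC class I genes was called by edgeR (median log2 fold change 0.058). B2m, the light chain of MHC class I and the most abundant, averaged 524.0 ± 84.5 CPM in KO and 515.0 ± 80.3 CPM in WT clones (SD, n = 5 and 6). Among 14 brakes of the pathway, 1 fell and none rose in edgeR. Ptpn6, the phosphatase SHP-1 that restrains cytokine receptors, measured 185.0, 179.0, 217.0, 174.0 and 182.0 CPM in KO clones, against 239.0, 256.0, 244.0, 232.0, 196.0 and 231.0 CPM in WT clones. KO 4J lay above WT 2E, and every other KO clone lay below all WT clones. The log2 fold change was -0.31 ± 0.073 (SE; edgeR adjusted p = 0.0355), and it kept its call only without WT 2D, WT 2E or KO 4J, with adjusted p of up to 0.0961 when any other clone was left out.

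The clone-to-clone pattern of the members extended to many genes of these lists. The Pearson r of each gene's log2 CPM with the members' average over 11 clones had a median of 0.56 among the 53 other interferon-stimulated genes and 0.804 among the 19 interferon-gamma and MHC class I genes, against -0.0103 among all 11893 tested genes outside the members, which include these lists. It exceeded 0.8 for 20 of 53 (37.7%) and for 10 of 19 (52.6%), against 663 of those 11893 (5.57%). Of the receptors and kinases, 3 of 8 (37.5%) exceeded 0.8 and 2 of 8 (25%) lay under -0.8, with a median of 0.706. The STAT and IRF factors had a median r of 0.105 with none of 7 over 0.8, and the brakes a median of -0.0911 with 1 of 14 (7.14%). WT 2D was the lowest clone for 24 of the 53 interferon-stimulated genes (45.3%), against 19.5% of those 11893. KO 4K and WT 2E were the highest for 17 and 13 of them (32.1% and 24.5%), against 12.5% and 10.2% of those 11893. Of the interferon-gamma and MHC class I genes, WT 2E was highest for 11 of 19 (57.9%) and WT 2D lowest for 8 (42.1%).

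**Figure D4:**
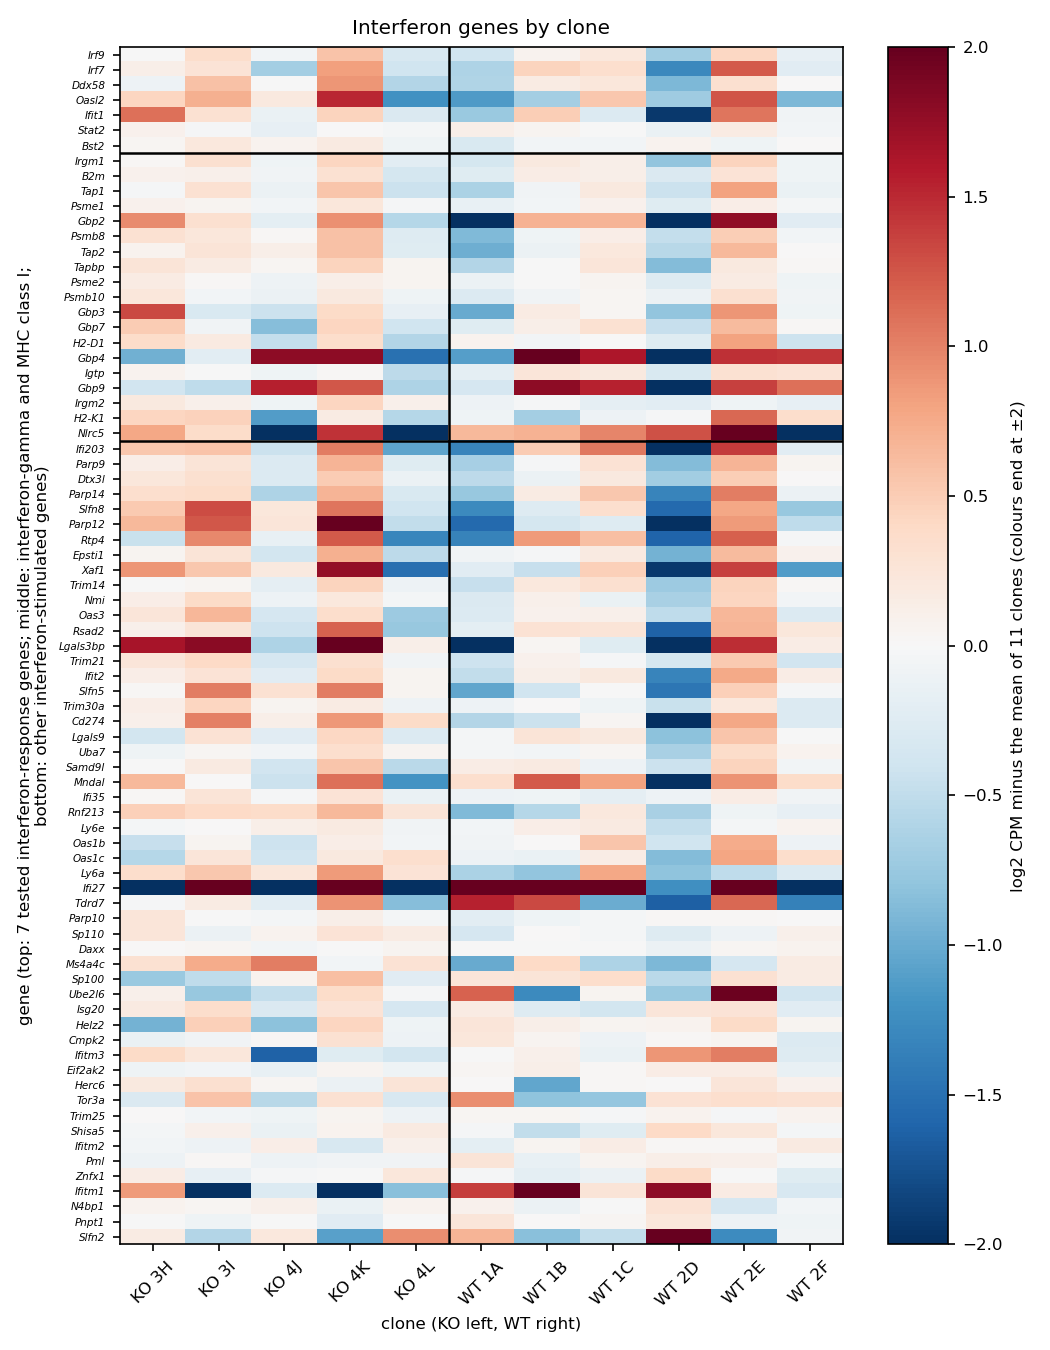
Log2 CPM of each tested gene minus its mean over 11 clones (colour, ending at 2 in either direction), with genes in rows and clones in columns, KO left and WT right of the vertical line. The rows are the 7 tested interferon-response genes at the top, 19 interferon-gamma and MHC class I genes in the middle and 53 other interferon-stimulated genes at the bottom, each block sorted by r with the members' average. KO 4K and WT 2E are red and WT 2D blue in most of the upper rows of each block. Of the genes shown, edgeR called only Rnf213 between KO and WT clones.

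Some of these genes also differed widely between clones. Among the tested members the widest range was 15.3-fold, for Ifit1, whose lowest clone, WT 2D, had 2 reads. Lgals3bp, a secreted glycoprotein, and Parp12, an antiviral ADP-ribosyltransferase, were chosen as examples after their values were seen. Lgals3bp measured 129.0, 144.0, 26.9, 224.0 and 44.8 CPM in KO clones, against 3.65, 42.4, 34.7, 3.93, 115.0 and 45.8 CPM in WT clones, a 61.3-fold range with KO 4K highest and WT 1A lowest. Parp12 measured 4.72, 7.17, 3.57, 15.4 and 2.11 CPM in KO clones, against 0.96, 2.33, 2.5, 0.605, 5.45 and 2.07 CPM in WT clones. Neither was called between genotypes by edgeR (adjusted p = 0.36 and 0.191). With the title number as a random effect in limma-voom, Parp12 was called higher in KO clones (log2 fold change 1.48, adjusted p = 0.0394). That setting called 1043 genes higher and 940 lower, against 328 and 273 in edgeR. Parp12 was not called with counts summed per title number or with title number set means. Of the 53 interferon-stimulated genes, 2 had an r under -0.8 (3.77%), against 726 of the 11893 tested genes outside the members (6.1%). They were Slfn2 (-0.91), which was highest in WT 2D, and Pnpt1 (-0.82), both named after their values were seen.

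The 8 genes outside the members whose log2 CPM was most like the members' average, among 9294 with at least 5 CPM on average, included Brd2 (r = 0.969), Sdcbp (0.963), Irgm1 (0.959), Parp9, H2-Ob and Ifi203 (0.957 each) and Tmem106b (0.955). Without the clones farthest from the median of that average, WT 2D and WT 1A, r lay between 0.908 for Ifi203 and 0.952 for Brd2. Irgm1, an immunity-related GTPase, Parp9 and the nuclear protein Ifi203 are on the interferon lists. Brd2, a chromatin reader, Sdcbp, H2-Ob and Tmem106b are not. Irgm1 measured 61.9, 75.9, 57.5, 82.3 and 52.8 CPM in KO clones, against 47.9, 70.3, 66.2, 35.3, 83.1 and 57.6 CPM in WT clones, with WT 2E and KO 4K highest and WT 2D lowest.

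**Figure D5:**
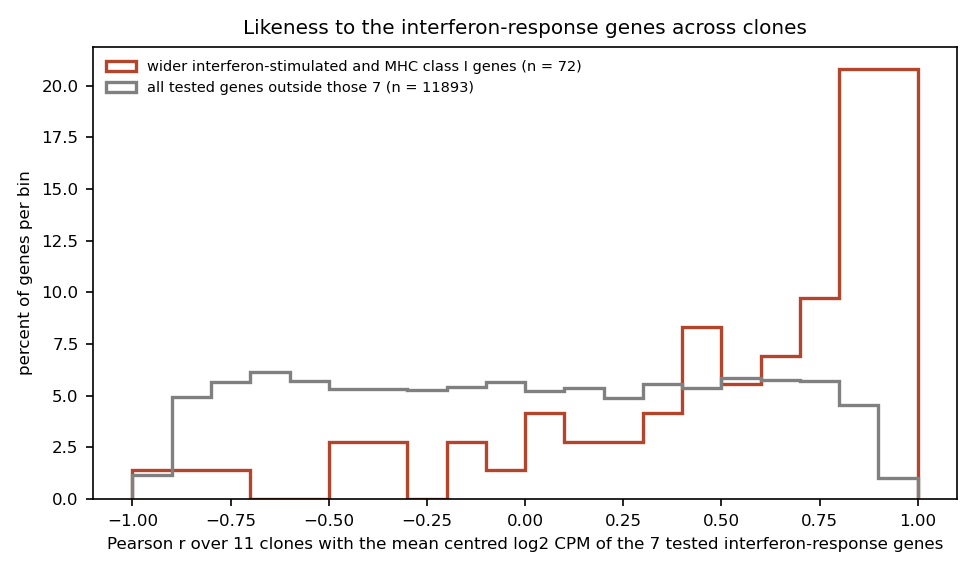
Distribution of Pearson's r between each gene's log2 CPM and the average of the 7 tested interferon-response genes over 11 clones (horizontal axis), as percent of genes per bin (vertical axis). The 72 tested genes of the interferon-stimulated and MHC class I lists (red) lie above 0.8 for 20 of 53 and 10 of 19 genes, respectively, and lower for the rest. All 11893 tested genes outside those 7, the 72 included (grey), spread almost evenly from -0.9 to 0.9.

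The members' average moved with the main axis of variation among the clones and with markers of myeloid maturation. The first principal component of all tested genes, holding 30.7% of the variance, had r = 0.932 and rho = 0.918 with it over 11 clones, and r = 0.865 without WT 2D and WT 1A. Late neutrophil genes ran the other way. Of these 10 markers, all had reads and 7 were tested, with a median r of -0.836 to the members' average, and their summed level ranged from 16 to 145 CPM in KO and from 22.1 to 1520 CPM in WT clones. The highest clone was WT 2D, in which S100a8, a calcium-binding protein of neutrophils, reached 438.0 CPM and Ltf, the granule protein lactoferrin, 137.0 CPM. The 7 tested markers also had a median log2 fold change, KO over WT, of -3.3, with 1 of them above 0. Their median biological coefficient of variation was 1.76, and edgeR called none of them. The GMP list was mixed, with a median r of -0.605: 4 of its 10 genes (40%) had an r under -0.8, against 6.1% of tested genes outside the members, and 2 (20%) had an r over 0.8, against 5.57%. The 4 were the granule genes Mpo, Elane and Prtn3 and the factor Gfi1, and the 2 were Kit (0.858) and Cd34 (0.827), surface markers of immature progenitors. Elane, neutrophil elastase, measured 49.9, 8.87, 73.8, 2.26 and 147.0 CPM in KO clones, against 373.0, 30.1, 57.2, 825.0, 23.3 and 74.4 CPM in WT clones, so that the low clones for the members (WT 2D, WT 1A and KO 4L) were the high clones for Elane. In bulk RNA, fewer cells of a type and less RNA per cell cannot be told apart, and the part of maturation in the members' pattern was not tested.

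Markers of other cells that the cultures could hold were read as whole lists of 10 genes. Of the plasmacytoid dendritic cell markers, 2 were tested, Klk1 was at 0 in every clone and Siglech in every clone but WT 1A (0.115 CPM), and the sum, 94.2 to 148 CPM in KO and 68 to 175 CPM in WT clones, came with a median r of 0.618 for those 2. The monocyte and macrophage list summed to 996 to 1830 CPM in KO and 564 to 1200 CPM in WT clones, with C1qa at 0 and a median r of -0.0681. B cell markers summed to 7.08 to 29.1 CPM in KO and 34 to 85.8 CPM in WT clones, without overlap between the genotypes, with Pax5 and Ms4a1 at 0 and a median r of 0.0174. All 6 tested B cell markers had a fold change below 0 (median log2 fold change -1.10), and edgeR called 1 lower in KO clones, Cd79b, part of the B cell receptor. It averaged 0.61 ± 0.216 CPM in KO and 8.55 ± 7.24 CPM in WT clones (SD, n = 5 and 6), a log2 fold change of -3.80 ± 0.73 (SE) at an edgeR adjusted p of 0.017. T and NK cell markers, of which only 1 of 10 was tested, summed to 95.7 to 200 CPM in KO and 44.9 to 186 CPM in WT clones. Cd3e, Gzma, Ncr1, Trbc1 and Trbc2 were at 0. The erythroid list summed to 910 to 1300 CPM in KO and 629 to 1260 CPM in WT clones with Hba-a2 at 0, and the hepatocyte list to 7.73 to 22.8 CPM in KO and 2.61 to 16.3 CPM in WT clones with 4 of 10 genes at 0. Endothelial and stromal markers summed to 87.8 to 136 CPM in KO and 63.4 to 141 CPM in WT clones, with 5 of 10 at 0, Cdh5 and Col1a1 among them, and an r of 0.781 for the 1 that was tested. Their part in the result was not tested.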

How the data were processed

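The authors deposited raw counts of reads per Ensembl gene for each clone, not normalised. Per the submitters' processing notes, the tools were STAR, HTSeq and edgeR and the build mm9, with no version given. Per the labels' protocols, libraries were made strand-specifically after polyA selection, but the files are marked as counted without strand. The counter's totals outside genes did not enter library sizes; reads in no gene were 5.41 to 6.94% and ambiguous reads 2.70 to 2.93% of gene counts and these rows. Symbols (32860 of 37583 IDs, 87.4%) and positions are those of GENCODE vM21 (GRCm38), matched by ID. Psmb9, Gbp5, Gbp6 and 9 type I interferon genes on the lists were not matched.

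The genotypes were tested in edgeR (robust glmQLFit and glmQLFTest on raw counts, TMM, filterByExpr, Benjamini-Hochberg over all tested genes, called at an adjusted p under 0.05). SE was worked back from the estimate and its F, and log2 CPM uses a prior count of 2, which narrows differences of sparsely counted genes. Title numbers were compared by contrasts among the 4 sets of clones. Single members were tested by exact permutation over all splits of the clones, and Irf7 against other members by Pearson's r and Spearman's rho. The tests were tried on simulated counts. Libraries of 1 genotype all differed by more than sampling noise (chi-square per gene at least 15.2). The floor of 3 counts reflects counting error alone. The members and lists were chosen with earlier results of these data known. The text names all members, the called genes of each list or the most abundant where none is called, and the genes most like the members; some genes that this rule takes are not named here. Alternatives were RLE and upper-quartile scaling, other filters, DESeq2, limma-voom, a non-robust fit, prior counts of 0.5 and 5, treatments of the title number, and leaving out clones. Python 3.11.15 (numpy 2.4.6, scipy 1.17.1, pandas 2.3.3, matplotlib 3.10.9) and R 4.3.3 (DESeq2 1.42.0, limma 3.58.1, edgeR 4.0.16) were used.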

Additional observations from a re-analysis of the deposited data

How the results depend on the processing

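No member was called between genotypes or title numbers under any alternative run. Over the alternatives of the genotype test the log2 fold change ranged from 0.09 to 0.22 for Bst2 (lowest adjusted p = 0.0947), 0.10 to 0.47 for Ddx58 (0.0925), 0.06 to 0.30 for Irf9 (0.171), 0.20 to 1.13 for Oasl2 (0.25) and -0.09 to 0.012 for Stat2 (0.438). It ranged from -0.0086 to 0.79 for Ifit1 (0.367) and from -0.34 to 0.27 for Irf7 (0.73), so the sign of these and of Stat2 is not fixed. Counts over all genes moved, from 328 higher and 273 lower, to 175 and 154 with no filter, 638 and 621 with DESeq2, 1043 and 940 with the title number as a random effect, 120 and 77 with counts summed per title number, and 178 and 129 with set means. Without all clones of title number 1, 2, 3 or 4 they were 27 and 18, 178 and 118, 56 and 36, and 24 and 8. Leaving out single clones gave 137 to 419 higher and 103 to 320 lower. The wider lists, with 1 gene higher and 1 lower, gave 0 higher with no filter, 2 and 3 with DESeq2, 10 and 6 with the random effect, 2 and 0 with summed counts, and 0 and 0 with set means and without title number 1, 3 or 4, and 0 higher without title number 2. Without single clones they gave 0 to 2 higher and 0 to 1 lower. Rnf213 was called in 10 of 25 alternatives (adjusted p 0.00132 to 0.345) and Ptpn6 in 12 of 25 (0.00141 to 0.298). The causes were not tested. DESeq2 called 12 genes for WT title number 2 against 1 and 6 for KO 4 against 3, and leaving out single clones gave 0 to 1 gene in each. Relations of Irf7 at an adjusted p under 0.05 numbered 4 to 6 of 8 when single clones were left out, an alternative chosen after seeing the data. The call of Stat2 was lost without WT 1B, 2D, 2E or 2F or KO 3H, 4J or 4L, at adjusted p up to 0.195. Of the 8 genes most like the members, 1 was also among the top 8 by Spearman's rho. No paired analysis was possible because the genotypes share no replicate or title numbers. Depth limits Isg15, Ifit1, Oasl2 and Ifit3, which had at most 28, 35, 48 and 2 reads in any clone.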
